A study of Mus musculus with 42 samples.

Results

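Trem2, Tyrobp, Gpnmb, Cd9, Spp1, Lgals3 and Fabp5 are marker genes of lipid-associated macrophages, and they were followed by symbol through the 54446 genes counted in liver RNA. All 7 were found once in the annotation and all 7 had enough counts to be tested, as had 15574 genes in total. The mice were female APOE*3-Leiden mice, which all carry a human APOE*3-Leiden transgene, chow-fed controls included, and each mouse gave 1 library. The groups were chow (n = 10), a Western-type diet (WTD, n = 16) and WTD with atorvastatin (n = 16), all taken at 32 weeks. The WTD held 15% cocoa butter, 40.5% sucrose and 1% cholesterol. Both WTD-fed groups were 8 to 14 weeks old at the start, had a run-in of 3 weeks on this diet and received 0.05% cholate from week 22. Atorvastatin, a statin that inhibits cholesterol synthesis, was given at 3.0 mg/kg/day after the run-in and at 4.5 mg/kg/day from week 5. For the WTD-fed groups, weeks are counted from the end of the run-in. WTD with atorvastatin was compared with WTD to ask what the drug changed on the same diet, and each WTD-fed group with chow to ask what the diet changed and what was left of it under treatment.

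Lipid-associated macrophages take up lipid and cell debris, and they have been described in obese adipose tissue, in atherosclerotic plaques and in fatty or scarred liver. TREM2 is their lipid-sensing surface receptor and TYROBP the adaptor through which it signals. GPNMB is a lysosomal and surface glycoprotein, CD9 a tetraspanin of the cell membrane, osteopontin (the product of Spp1) and galectin-3 (the product of Lgals3) are secreted, and FABP5 carries fatty acids in the cytosol. Trem2 is largely a myeloid gene and Tyrobp is shared by myeloid and natural killer cells. The other genes are not restricted to leukocytes, since bile duct cells make osteopontin and several epithelia make CD9, galectin-3 and FABP5. These are bulk livers, so fewer cells of a type and less RNA per cell cannot be told apart.

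Counts on genes ranged from 15661381 to 36224054 per mouse. Levels are given as CPM, the count of a gene relative to the scaled total of its library. In 8 libraries (3 chow, 4 WTD, 1 WTD with atorvastatin) over 20% of the genes expressed weakly in their own group had no count. For the 7 genes, values without these libraries are given where they change a call. Calls of the other genes named below were not checked in this way. The WTD-fed mouse Gen#20 had the lowest level of its group for 6 of the 7 genes. Chow-fed mice carry names in another series (AZ#) than WTD-fed mice (Gen#). What these series stand for is not given, so a difference between them and the diet cannot be told apart.

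Promoter windows, from 250 bases before to 50 bases after a RefSeq transcription start (GRCm38.p6), were on hand for 5 of the 7 genes, with 2 windows for Spp1 and none for Tyrobp and Fabp5. The windows of Gpnmb (chr6:49036268-49036567, plus strand) and Trem2 (chr17:48346151-48346450, plus strand) are shown because both hold the AP-1 motif TGANTCA and because these genes are the receptor and the gene with the largest difference between diets. Capitals mark the motif, and each sequence runs 5′ to 3′.
Gpnmb: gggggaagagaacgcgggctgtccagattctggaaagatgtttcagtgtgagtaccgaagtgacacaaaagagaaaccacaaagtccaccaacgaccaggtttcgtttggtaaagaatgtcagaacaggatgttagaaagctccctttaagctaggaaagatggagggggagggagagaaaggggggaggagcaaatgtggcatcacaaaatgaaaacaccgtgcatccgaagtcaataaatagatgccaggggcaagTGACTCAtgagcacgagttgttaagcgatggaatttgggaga
Trem2: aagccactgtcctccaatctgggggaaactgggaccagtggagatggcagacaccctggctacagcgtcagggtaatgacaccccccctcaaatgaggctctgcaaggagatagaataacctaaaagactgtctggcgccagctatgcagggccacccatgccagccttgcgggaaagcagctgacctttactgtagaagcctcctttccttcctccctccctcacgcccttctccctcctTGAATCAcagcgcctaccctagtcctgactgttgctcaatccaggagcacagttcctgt
The motif starts 8 bases past the annotated start in Gpnmb and 9 bases before it in Trem2. Among all 32851 windows of this length, 7.81% hold TGANTCA on either strand. The E-box CACGTG, to which MITF and TFEB bind, was in none of the 6 windows of these genes and in 7.15% of all windows. Its variant CATGTG was in the window of Cd9 and in 14.2% of all, and the ETS letters GAGGAAGT, of the type PU.1 binds, were in a window of Spp1 and in 3.2% of all. The motifs were chosen with these windows in view, and no match in these windows overlaps another. A match is a description of the sequence only.

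All 7 genes were higher on WTD than on chow. Of all tested genes, 17.5% were called higher in this comparison and 16.0% lower, at an adjusted p under 0.01 (Benjamini-Hochberg, from the quasi-likelihood test of edgeR, as for all log2 fold changes). For 6 of the 7, all but Cd9, no WTD-fed mouse reached down to any chow-fed mouse, which held for 3.4% of all tested genes. With atorvastatin, 5 of the 7 (Trem2, Tyrobp, Gpnmb, Spp1 and Lgals3) were lower than on WTD alone, against 2.26% of all tested genes lower and 4.84% higher. Treated mice still had all 7 above chow (background 14.2% higher, 10.7% lower), with no overlap for 5 of them (background 2.88%). The median log2 fold change of the 7 was 2.76 for WTD over chow, -0.79 for treatment over WTD and 2.02 for treatment over chow, beside 0.03, 0.00 and 0.04 over all tested genes. The comparisons share groups of mice, so they are given side by side and not as separate evidence.

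**Figure D1:**
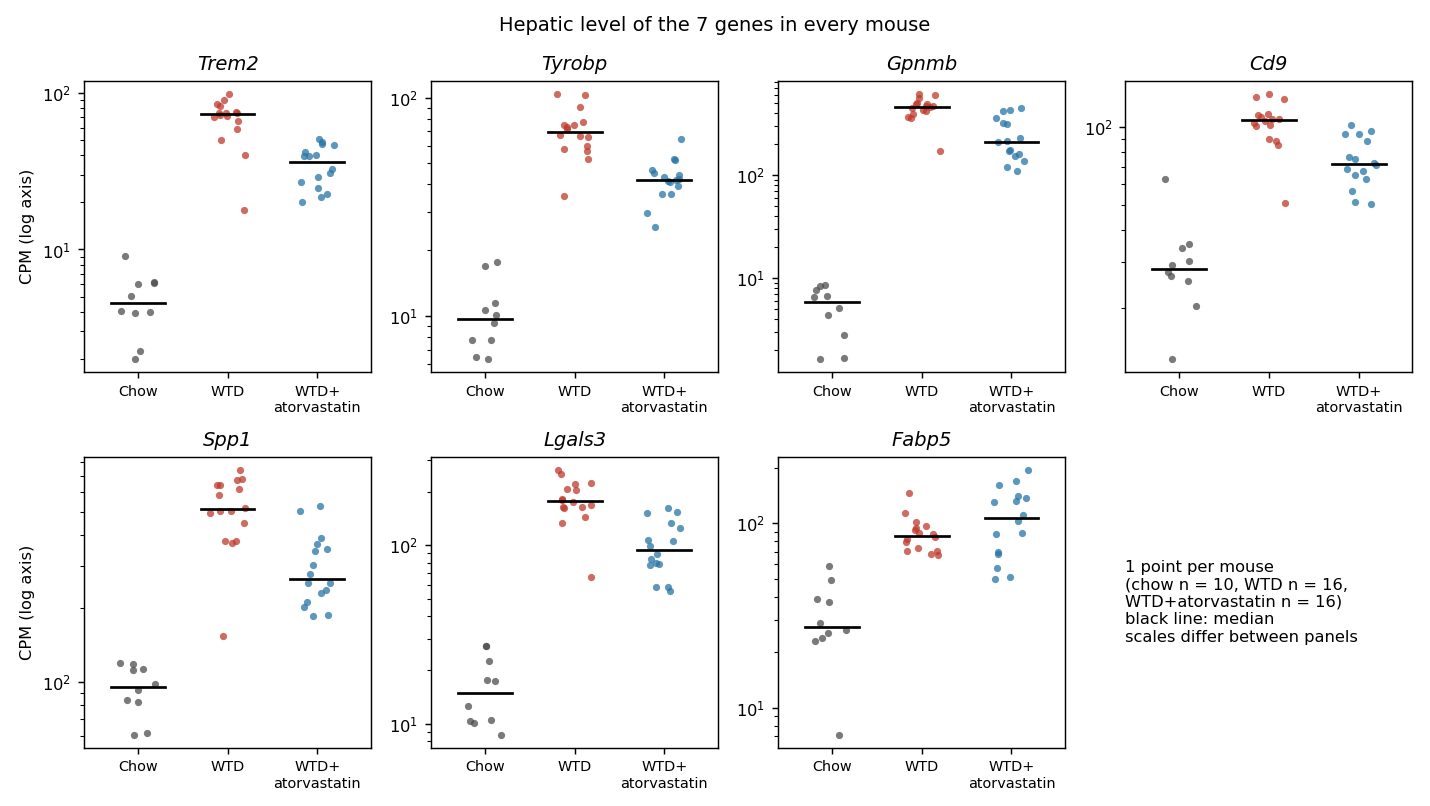
Level of each gene in CPM (vertical log axis, scales differ between panels) in chow-fed (n = 10), WTD-fed (n = 16) and atorvastatin-treated WTD-fed mice (n = 16), with 1 point per mouse and a black line at the group median. Gpnmb had the widest distance between chow and WTD, from medians of 5.80 to 463.3 CPM, and Fabp5 was the gene whose treated median lay above that of WTD.

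Trem2, the receptor, was scarce on chow and rose on WTD, where it was last of the 7 genes per length. Chow-fed mice had 2.00 to 9.14 CPM (median 4.55), WTD-fed mice 17.8 to 98.3 (median 73.3) and treated mice 20.3 to 51.2 (median 36.1). Both WTD-fed groups lay wholly above chow, and each treated mouse lay below the WTD median, while the ranges of these groups overlapped. Trem2 was 14.3-fold higher on WTD than on chow (log2 fold change 3.83, SE 0.24, adjusted p = 5.25e-17) and fell by 48.8% with atorvastatin (log2 fold change -0.97, SE 0.18, adjusted p = 0.00015). It remained 7.3-fold above chow under treatment (log2 fold change 2.87, SE 0.23).

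Tyrobp, the adaptor, moved in the same direction over a smaller range. Its level was 6.37 to 17.8 CPM on chow (median 9.69), 35.6 to 103.5 on WTD (median 69.7) and 25.5 to 64.8 with atorvastatin (median 42.1). Only 2 treated mice lay below the lowest WTD-fed mouse, but all 16 lay below the WTD median. The gene rose 6.76-fold on WTD (log2 fold change 2.76, SE 0.17, adjusted p = 1.58e-18) and fell by 39.8% with treatment (log2 fold change -0.73, SE 0.13, adjusted p = 9.69e-05). In the ratio of Trem2 to Tyrobp, the groups with and without treatment differed by -0.22 on the log2 scale (SE 0.14, adjusted p = 0.196 over 21 pairs, permutation test), which did not pass the test.

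Signalling below the receptor was examined in 16 genes for kinases, adaptors and phosphatases that act on TYROBP signals, and for the proteases that shed TREM2. On WTD 15 of 16 were higher than on chow and none was lower, with a median log2 fold change of 1.67. The kinase Syk rose from 16.2 ± 6.26 to 49.8 ± 11.85 CPM (SD), the exchange factor Vav1 from 7.90 ± 2.30 to 33.0 ± 8.37, and the lipid phosphatase Inpp5d (SHIP1) from 10.3 ± 3.33 to 36.8 ± 7.68. With atorvastatin 1 of the 16 was lower and none higher, and the median was -0.29. That gene was the adaptor Lat2, which fell from 14.6 ± 6.24 to 6.11 ± 2.85 CPM (log2 fold change -1.25, SE 0.33, adjusted p = 0.00783). Syk, at 40.0 ± 7.37 CPM under treatment, missed the threshold (log2 fold change -0.32, SE 0.12, adjusted p = 0.0747). Of 5 other receptors that pair with TYROBP, Trem1 and Trem3 had too few counts to be tested. Clec5a (log2 fold change 4.03, SE 0.64) and Cd300lb (2.43, SE 0.30) rose on WTD, Pilrb1 did not pass, and none of these 3 passed between treatment and WTD.

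Gpnmb, a glycoprotein of lysosome-rich cells, had the largest difference between diets among the 7. Chow-fed mice had 1.64 to 8.64 CPM (median 5.80), WTD-fed mice 171.9 to 612.5 (median 463.3) and treated mice 109.9 to 446.8 (median 211.3). The lowest WTD-fed mouse had many times the level of the highest chow-fed mouse, and 6 of 16 treated mice lay below all WTD-fed mice. The gene was 84.3-fold higher on WTD than on chow (log2 fold change 6.40, SE 0.33, adjusted p = 4.1e-19). It fell by 45.1% with atorvastatin (log2 fold change -0.86, SE 0.21, adjusted p = 0.00372), a call that was lost without the 8 incomplete libraries (log2 fold change -0.76, adjusted p = 0.0308) and in a fit that took the incompleteness of each library as a covariate (-0.80, adjusted p = 0.0113). Treated mice kept 46.4-fold more Gpnmb than chow-fed mice (log2 fold change 5.54, SE 0.32).

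Among 12 transcription factors known from lipid-loaded macrophages, 7 were higher and 2 lower on WTD, and none passed between treatment and WTD. Mitf, a factor of lysosomal genes, rose from 6.07 ± 2.07 to 12.6 ± 4.26 CPM on WTD (log2 fold change 1.06, SE 0.18). Spi1, which codes for the myeloid factor PU.1, rose from 16.4 ± 7.92 to 49.6 ± 14.0 CPM, and Pparg, a nuclear receptor for fatty acids, from 18.1 ± 4.90 to 28.5 ± 4.45. Rxra and Nr1h2 (LXR beta) were the genes that were lower, with log2 fold changes of -0.36 (SE 0.09) and -0.32 (SE 0.09). Under treatment Mitf was at 8.92 ± 1.92 CPM (log2 fold change -0.50, SE 0.15, adjusted p = 0.0189) and did not pass.

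Cd9, the tetraspanin, had the second smallest difference between diets. Its level was 12.7 to 62.7 CPM on chow (median 28.3), 51.0 to 133.3 on WTD (median 105.8) and 50.5 to 101.8 with atorvastatin (median 71.8). The chow range reached into that of WTD through 1 chow-fed mouse, AZ#1 at 62.7 CPM. Cd9 rose 3.42-fold on WTD (log2 fold change 1.77, SE 0.16, adjusted p = 1.52e-12). All 16 treated mice lay below the WTD median, yet the difference missed the threshold narrowly (log2 fold change -0.48, SE 0.13, adjusted p = 0.0104), and 8 of 10 other ways of fitting called it. Some exonic bases of Cd9 lie opposite exons of Gm26728, annotated on the other strand.

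Of 14 other tetraspanins, 7 were higher and 1 was lower on WTD, and 3 were lower with atorvastatin. Cd63, a tetraspanin of late endosomes and lysosomes, rose from 21.0 ± 6.67 to 167.7 ± 49.8 CPM on WTD and was 78.1 ± 24.4 under treatment (log2 fold change -1.10, SE 0.18, adjusted p = 4.23e-05). Cd53, a leukocyte tetraspanin, rose from 7.48 ± 2.59 to 48.2 ± 9.38 CPM and fell to 32.6 ± 5.81. Cd151 was the other gene to fall, with a log2 fold change of -0.29 (SE 0.08). Tspan31 was the gene that was lower on WTD, at 167.5 ± 19.1 against 235.4 ± 29.0 CPM.

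**Figure D2:**
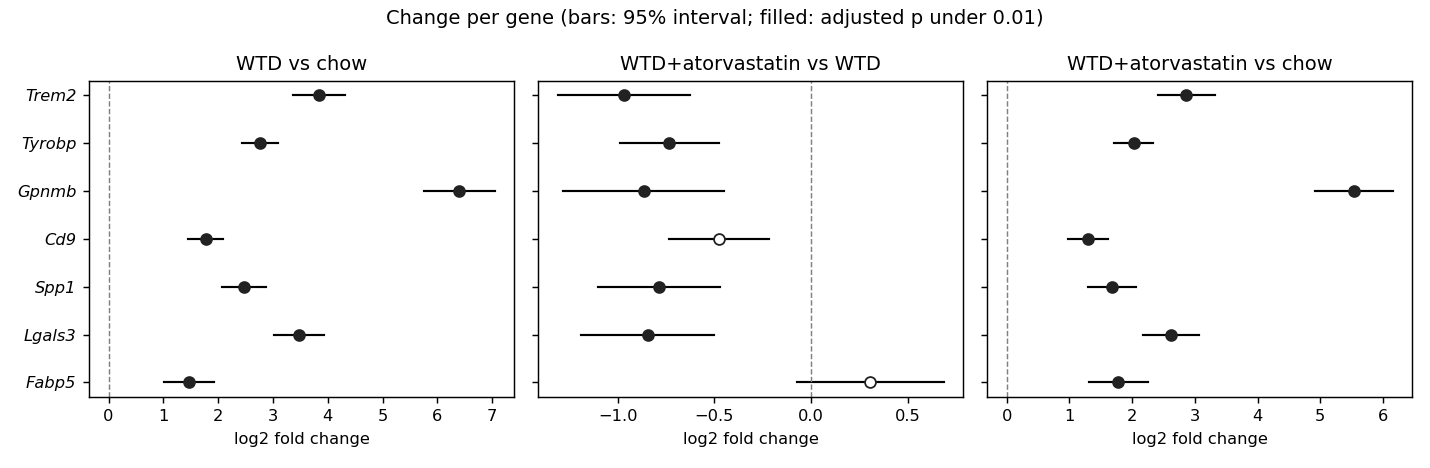
Log2 fold change of each gene (horizontal axis, scales differ between panels) for WTD against chow, WTD with atorvastatin against WTD, and WTD with atorvastatin against chow. Points are estimates, bars 95% intervals, and filled points passed an adjusted p under 0.01. In the middle panel 5 genes passed below 0, Cd9 did not pass, and the interval of Fabp5 ran from -0.07 to 0.69.

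Spp1, which codes for osteopontin, was the most abundant of the 7 per length in each group. Chow-fed mice had 60.7 to 119.6 CPM (median 95.5), WTD-fed mice 153.9 to 741.3 (median 510.5) and treated mice 186.7 to 528.4 (median 265.4). WTD-fed mice lay wholly above chow, and 15 of 16 treated mice lay below the WTD median. Spp1 rose 5.53-fold on WTD (log2 fold change 2.47, SE 0.20, adjusted p = 1.88e-13) and fell by 42.0% with atorvastatin (log2 fold change -0.79, SE 0.16, adjusted p = 0.000648). The second call was narrowly lost without the 8 incomplete libraries (log2 fold change -0.70, adjusted p = 0.0109). Over 309 bases the exons of Spp1 coincide with Gm42793, a transcript annotated on the same strand. Reads there cannot be assigned to 1 gene.

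Of 9 receptor genes for osteopontin, 7 were higher on WTD and 2 were lower with atorvastatin. Cd44 rose from 14.1 ± 5.53 to 55.8 ± 12.2 CPM on WTD (log2 fold change 1.99, SE 0.18), and the integrin gene Itga9 from 23.9 ± 2.5 to 61.5 ± 10.1. The integrin genes Itgav (log2 fold change -0.50, SE 0.10, adjusted p = 0.000502) and Itgb5 (-0.28, SE 0.06, adjusted p = 0.00069) fell under treatment. Cd44 had 41.0 ± 9.70 CPM there (adjusted p = 0.029) and did not pass.

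Lgals3, which codes for galectin-3, a lectin that binds damaged endosomes and lysosomes, had 8.69 to 27.4 CPM on chow (median 14.9), 66.6 to 264.4 on WTD (median 177.1) and 55.6 to 162.4 with atorvastatin (median 94.3). No WTD-fed mouse of either group overlapped with chow. Lgals3 rose 11.1-fold on WTD (log2 fold change 3.47, SE 0.24, adjusted p = 1.09e-15) and fell by 44.3% with atorvastatin (log2 fold change -0.85, SE 0.18, adjusted p = 0.000815). It stayed 6.16-fold above chow under treatment.

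Among other galectins, Lgals1 was, like Lgals3, called higher on WTD and lower with atorvastatin, and the rest were not. Unlike Lgals3, it did not pass against chow under treatment (log2 fold change 0.12, SE 0.15, adjusted p = 0.583). Of 8 listed, 4 were tested, 3 had too few counts and the symbol Lgals6 was not matched. Lgals1 rose from 34.2 ± 10.4 to 64.8 ± 15.8 CPM on WTD and fell to 37.0 ± 10.7 with atorvastatin (log2 fold change -0.81, SE 0.13, adjusted p = 3.95e-05). Lgals9 was lower on WTD (463.4 ± 66.2 against 598.0 ± 63.3 CPM) and higher with treatment (622.6 ± 93.9), and Lgals4 was lower on WTD (17.5 ± 6.21 against 34.5 ± 18.7 CPM). Lgals8 rose with treatment, from 139.3 ± 19.6 to 165.7 ± 11.9 CPM.

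Fabp5, the fatty acid carrier, stood apart from the other 6 under treatment. Its level was 7.15 to 59.1 CPM on chow (median 27.5), 67.0 to 145.5 on WTD (median 85.7) and 49.9 to 195.1 with atorvastatin (median 107.1). No WTD-fed mouse without treatment overlapped with chow. Treated mice spread more widely than untreated ones, with 3 below the lowest and 3 above the highest WTD-fed mouse and 11 of 16 above the WTD median. Fabp5 rose 2.77-fold on WTD (log2 fold change 1.47, SE 0.24, adjusted p = 1.68e-06). Between treatment and WTD the log2 fold change was 0.31 (SE 0.19, 95% interval -0.07 to 0.69, adjusted p = 0.359). This interval includes no change and leaves out a fall of the size seen for the 5 genes that fell. Another 5 annotated genes match the Fabp5 transcript at 90% identity or more over at least 150 bases, and none of them had more than 45 counts over all 42 mice, against 73447 for Fabp5. Read pairs that fit 2 of these places equally are counted for neither.

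Fabp7 was called in the same comparisons as Fabp5. Of 6 fatty acid binding proteins listed, 5 were tested, and 2 were higher and 1 lower on WTD. Fabp4, the form of adipocytes and macrophages, rose from 9.98 ± 5.70 to 22.1 ± 6.11 CPM and fell to 12.4 ± 5.18 with atorvastatin (log2 fold change -0.83, SE 0.19, adjusted p = 0.00151). Fabp7 rose from 4.23 ± 2.65 to 15.5 ± 4.59 CPM on WTD and had 14.5 ± 3.44 under treatment, which did not pass. Fabp1, the hepatocyte form, was lower on WTD, at 1215 ± 372 against 2649 ± 504 CPM.

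Per length the order of the genes differed between chow and WTD. Levels were divided by the longest principal transcript of each gene. On chow Spp1 led with 62.5 ± 14.6 CPM per kb, ahead of Fabp5 (32.3), Cd9 (24.7), Tyrobp (18.5), Lgals3 (11.6), Trem2 (4.47) and Gpnmb (1.45). On WTD Spp1 had 345.6 ± 100.6 CPM per kb, and Lgals3 (128.1), Tyrobp (125.6) and Gpnmb (122.3) did not differ beyond their spread, with Lgals3 above Tyrobp and Tyrobp above Gpnmb in 8 of 16 mice each. Fabp5 (89.8), Cd9 (84.5) and Trem2 (63.4) followed. With atorvastatin Fabp5 was second with 111.0 ± 45.6 CPM per kb after Spp1 with 200.3 ± 70.0, followed by Tyrobp (75.5), Lgals3 (71.3), Gpnmb (67.2), Cd9 (60.6) and Trem2 (32.4). Gpnmb was above Cd9 in 8 of 16 treated mice. The ranges of each pair of neighbours overlapped. If all annotated exons are counted as length, the order on WTD and under treatment is the same, with Fabp5 and Trem2 last, so that the place of Fabp5 under treatment depends on the length used, which was chosen after the values were seen. For these genes the exon totals, 3567 and 4946 bases, far exceed their principal transcripts of 987 and 1088 bases.

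Another list, of 28 tested genes reported for lipid-associated or scar-associated macrophages, gave counts in the same directions. It includes Cd63, Fabp4 and Lgals1, which are also counted in the families above. On WTD 25 of the 28 were higher and 1 was lower (median log2 fold change 1.25), and with atorvastatin 17 were lower and none higher (median -0.46). The lysosomal hydrolase gene Hexa rose from 73.8 ± 10.3 to 163.0 ± 22.5 CPM on WTD and fell to 117.0 ± 13.9 with treatment (log2 fold change -0.48, SE 0.07, adjusted p = 1.4e-05). The protease gene Ctss rose from 48.5 ± 9.24 to 384.9 ± 73.0 CPM on WTD and fell to 236.3 ± 61.8. The receptor tyrosine kinase gene Axl rose from 36.1 ± 4.58 to 157.5 ± 21.3 CPM and fell to 125.3 ± 20.0, and Clec7a (dectin-1) rose from 9.39 ± 2.85 to 127.0 ± 29.8 and fell to 77.9 ± 19.0. Cst7 had too few counts to be tested.

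Markers of macrophages in general moved with the 7 genes. All 10 pan-macrophage markers were higher on WTD, with summed levels of 284 to 371 CPM on chow, 1170 to 2470 on WTD and 956 to 1760 with atorvastatin, and 4 of the 10 were lower with treatment. Lyz2 (lysozyme) rose from 99.5 ± 18.1 to 1099 ± 254 CPM and fell to 554.3 ± 144. Csf1r, the receptor for the growth factor of macrophages, rose from 53.6 ± 5.46 to 178.3 ± 28.5 and had 164.6 ± 26.1 under treatment, which did not pass. Of 7 Kupffer cell markers, 3 were higher and 1 was lower on WTD, and 1 was higher and 1 lower with atorvastatin. Cd5l, a secreted protein of tissue macrophages, rose from 113.0 ± 17.2 to 979.1 ± 194.6 CPM on WTD and fell to 747.2 ± 115.8 (log2 fold change -0.39, SE 0.08, adjusted p = 0.000715). Marco, a scavenger receptor, had 52.2 ± 134.1 CPM on WTD and 11.7 ± 14.2 with treatment and did not pass (adjusted p = 0.0201). Cd163 was close to 0 in both WTD-fed groups (0.21 ± 0.41 and 0.34 ± 0.61 CPM, against 10.3 ± 6.00 on chow), and Clec4f had 161.2 ± 42.8 CPM on chow, 190.9 ± 65.8 on WTD and 294.0 ± 81.0 with atorvastatin, a rise over WTD (log2 fold change 0.62, SE 0.16, adjusted p = 0.0047).

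Markers of some other cells moved too. All 9 cholangiocyte markers were higher on WTD and none passed with treatment (median log2 fold changes 1.91 and -0.51). Their summed levels were 55.2 to 86.3, 74.5 to 196 and 82.1 to 165 CPM on chow, on WTD and with treatment. Of 10 stellate cell and fibroblast markers, 6 were higher on WTD, and 4 were lower and 1 was higher with treatment (summed 404 to 686, 1150 to 2640 and 1040 to 2490 CPM). Of 7 monocyte markers 4 rose on WTD, as did 5 of 6 tested neutrophil markers, 1 of 7 dendritic cell markers and 2 of 7 endothelial markers, of which 2 others fell. Over all tested genes 17.5% were higher and 16.0% lower on WTD. In lists this short the dendritic cell and endothelial counts cannot be told from these shares. None of 9 T and B cell markers passed. Hepatocyte markers were lower on WTD in 6 of 6 and higher with treatment in 4 of 6. The part of these cells in the levels of the 7 genes was not tested.

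Each gene was then set against the mean log2 CPM of the 10 pan-macrophage markers, which itself was 2.21 higher on WTD than on chow and 0.40 lower with atorvastatin (log2 means 4.45 ± 0.15, 6.66 ± 0.20 and 6.26 ± 0.20 SD). On WTD Gpnmb gained 4.34 (SE 0.32) more than these markers, Trem2 1.63 (SE 0.24), Lgals3 1.32 and Tyrobp 0.58, with adjusted p of 7e-05, 7e-05, 0.000187 and 0.0039 (permutation tests, adjusted over 14). Spp1 did not differ from the markers by this test (0.22, adjusted p = 0.302). It did gain with the leukocyte gene Ptprc (0.86, adjusted p = 0.00107) or the Kupffer cell markers (2.35, adjusted p = 2.8e-05) as reference. Cd9 and Fabp5 gained less than the markers (-0.36, adjusted p = 0.0343, and -0.59, adjusted p = 0.0174). With Ptprc as reference neither passed (0.274, adjusted p = 0.158, and 0.045, adjusted p = 0.858). With the Kupffer cell markers as reference both gained (1.77, adjusted p = 4.67e-05, and 1.54, adjusted p = 0.00012). The mean log2 CPM of this Kupffer cell list differed by only 0.07 between WTD and chow, while its genes moved apart. Their log2 fold changes ran from -5.53 (Cd163) to 3.12 (Cd5l), and their median summed level was 343 CPM on chow and 1270 on WTD. A gain over this list is thus close to the gene's own change, and is no measure against Kupffer cells. Tyrobp and Cd9 did not pass with the macrophage gene Adgre1 as reference (0.45, adjusted p = 0.0668, and -0.50, adjusted p = 0.0849). With atorvastatin Gpnmb (-0.56), Trem2 (-0.54), Lgals3 (-0.47) and Tyrobp (-0.32) fell more than the markers, each with an adjusted p of 0.0039. Spp1 also fell more (-0.38, adjusted p = 0.0232), although not at the threshold without the incomplete libraries (-0.28, adjusted p = 0.13) or with Adgre1 as reference (-0.47, adjusted p = 0.0545). For Cd9 the difference was -0.08 (SE 0.08, adjusted p = 0.351), but with Ptprc as reference it was -0.21 and passed (adjusted p = 0.0433). Fabp5 rose relative to the markers (0.61, SE 0.20, adjusted p = 0.00683), but did not pass relative to Kupffer cell markers (0.26, adjusted p = 0.31).

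**Figure D3:**
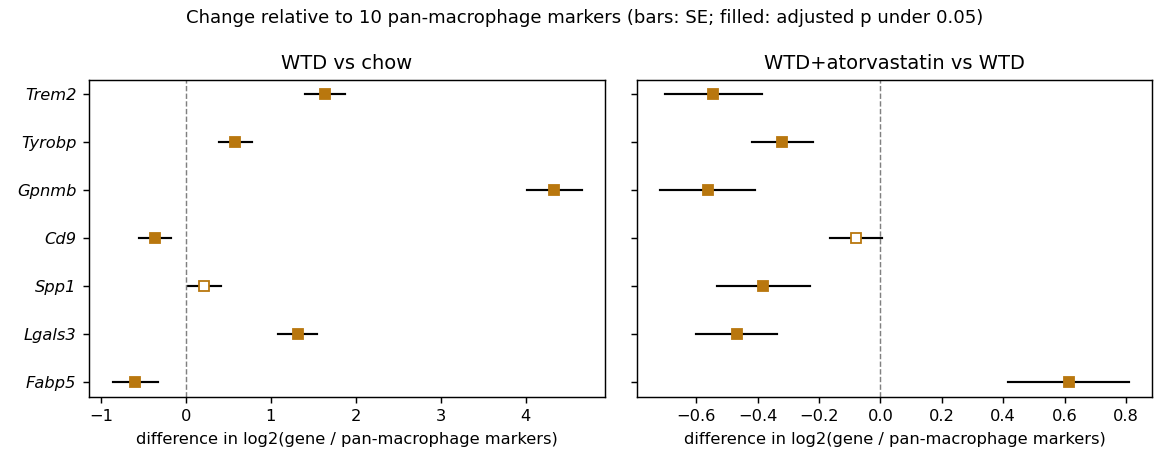
Difference between groups in the log2 ratio of each gene to the mean of 10 pan-macrophage markers (horizontal axis, scales differ), for WTD against chow and for WTD with atorvastatin against WTD. Squares are differences, bars standard errors, and filled squares passed an adjusted p under 0.05 in a permutation test. Gpnmb stood at 4.34 in the left panel, and Fabp5 at 0.61 was the only gene above 0 in the right panel.

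The ratio between genes within a mouse was compared for all 21 pairs between treatment and WTD, a comparison added after the values were seen. Fabp5 gained on each of the other 6 genes with atorvastatin, by 0.69 (over Cd9) to 1.18 (over Gpnmb) on the log2 scale (adjusted p 0.0021 to 0.00959, permutation test). Cd9 gained on Trem2, Tyrobp, Gpnmb, Spp1 and Lgals3 by 0.24 to 0.48 (adjusted p 0.0021 to 0.0281). In total 11 of 21 ratios passed. The 10 ratios among Trem2, Tyrobp, Gpnmb, Spp1 and Lgals3 did not pass, with differences of at most 0.24 in size.

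Within groups the genes were compared across mice. Among all 16 WTD-fed mice 14 of 21 pairs correlated at an adjusted p under 0.05, but this rested on mouse Gen#20, for which Trem2 was 17.8 and the next lowest WTD-fed mouse 40.3 CPM. Without it 4 of 21 pairs passed (n = 15, permutation test). These were Gpnmb with Lgals3 (r = 0.79, adjusted p = 0.00231), Trem2 with Gpnmb (r = 0.77, adjusted p = 0.00249), Gpnmb with Cd9 (r = 0.65, adjusted p = 0.0221) and Trem2 with Lgals3 (r = 0.59, adjusted p = 0.0451). Their Spearman rho over all 16 mice were 0.77, 0.71, 0.63 and 0.62, and r without the 2 mice farthest from the median of the first gene was 0.74, 0.71, 0.57 and 0.67. Tyrobp, the adaptor of TREM2, had an r of 0.27 with Trem2 in these 15 mice (adjusted p = 0.389).

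Among the 16 treated mice 14 of the 15 pairs without Fabp5 correlated positively at an adjusted p under 0.05, by Pearson r and by Spearman rho, all but Tyrobp with Spp1 (r = 0.47, adjusted p = 0.0793). Gpnmb with Lgals3 had an r of 0.92 (rho 0.90, r without the 2 farthest mice 0.88, adjusted p = 0.000105, permutation test) and Trem2 with Gpnmb an r of 0.91 (rho 0.91, without the 2 farthest 0.88, adjusted p = 0.000105). Fabp5 had a negative r with each of the other 6 genes, and 3 of these passed by Pearson r (Gpnmb -0.62, Spp1 -0.56 and Trem2 -0.55, adjusted p 0.0201 to 0.0381) but none by Spearman rho (-0.51, -0.49 and -0.54, adjusted p 0.0691 to 0.0996). Over WTD-fed mice without Gen#20 the sign was the opposite. There the r of Fabp5 ran from 0.20 (with Spp1) to 0.54 (with Gpnmb), and none passed. The 6 treated mice with the most Gpnmb were Gen#22, Gen#23, Gen#24, Gen#25, Gen#28 and Gen#36, and the first 5 of these had the least Fabp5 of the group (49.9 to 70.0 CPM, against 87.3 to 195.1 in the rest). Within these 6 mice the r of Fabp5 with the other genes ran from -0.11 to 0.75. Within the 10 other treated mice it ran from 0.42 to 0.77, and none passed in either set. Both sets were cut on Gpnmb itself, so these values do not decide the sign. The same 6 libraries had scaling factors of 1.02 to 1.11, and the 10 other treated libraries 0.890 to 0.980, while WTD-fed mice ran from 0.915 to 1.22. Of the 6, 4 carry consecutive animal numbers, Gen#22 to Gen#25, the lowest of the group. The part of the scaling factor and of the animal number in these relations was not tested.

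**Figure D4:**
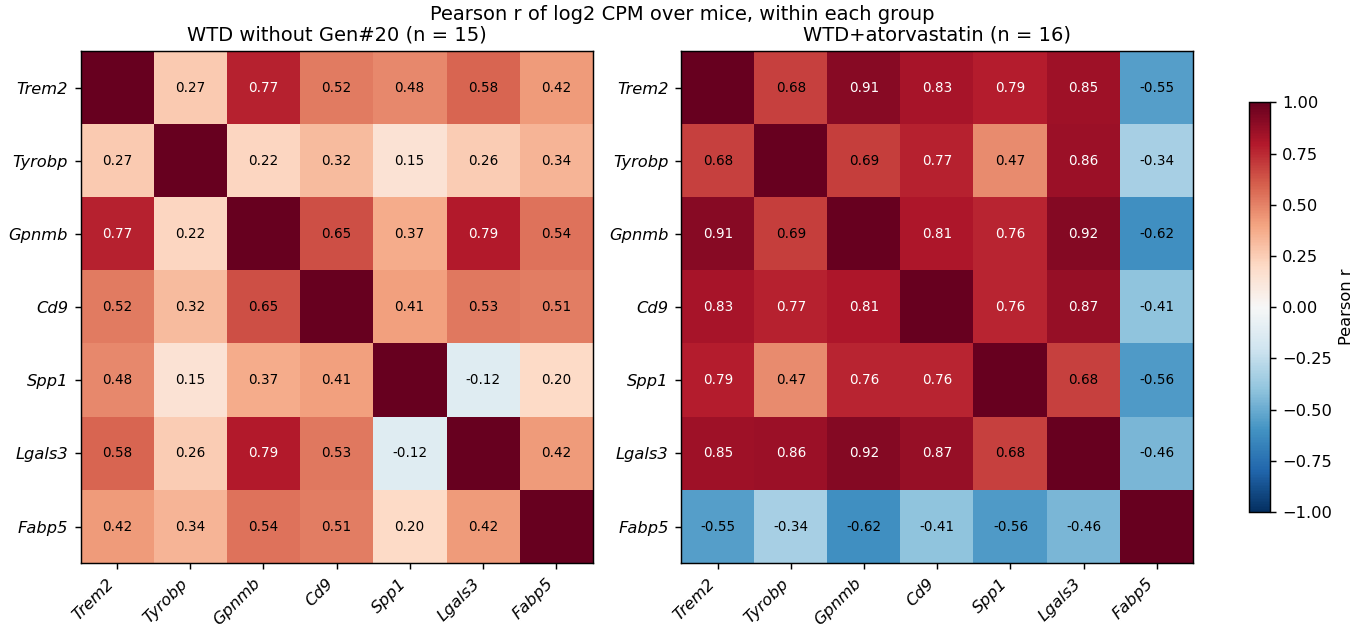
Pearson r of log2 CPM between the 7 genes over WTD-fed mice without Gen#20 (n = 15) and over treated mice (n = 16), from -1 (blue) to 1 (red). Gpnmb correlated with Trem2 and Lgals3 at 0.77 and 0.79 in the left panel and at 0.91 and 0.92 in the right panel, where the row of Fabp5 was negative.

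Spp1 followed bile duct markers, but not these alone, and under treatment it was not the only gene that did. Over 15 WTD-fed mice without Gen#20 its r with the mean of the 9 cholangiocyte markers was 0.81 (adjusted p = 0.00273, permutation test over 56 relations), the only one of 28 gene and marker list relations in WTD that passed in these mice. Over all 16 it was 0.93 (Spearman rho 0.83, r without the 2 farthest mice 0.81). With pan-macrophage markers the r of Spp1 was -0.08 in the 15 WTD-fed mice. With the stellate cell and fibroblast markers it was 0.55 in these 15 (adjusted p = 0.101) and 0.75 in all 16 (rho 0.71, adjusted p = 0.00504 for r). In the 16 treated mice Spp1 had an r of 0.85 with the cholangiocyte markers (rho 0.85, without the 2 farthest mice 0.73, adjusted p = 0.00084), but also 0.77 with the pan-macrophage markers (adjusted p = 0.00249), and 18 of 28 relations passed there. Trem2, Cd9, Gpnmb and Lgals3 also passed with the cholangiocyte markers (r 0.66 to 0.79). With the stellate cell and fibroblast markers r was 0.92 for Gpnmb, 0.88 for Trem2 and 0.83 for Lgals3. Their r with the pan-macrophage markers was 0.84, 0.76 and 0.78. For Cd9, Spp1 and Tyrobp these were 0.78, 0.695 and 0.64 against 0.78, 0.77 and 0.67. Fabp5 had -0.655 with the stellate cell and fibroblast markers, which did not pass by Spearman rho (adjusted p = 0.0588).

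**Figure D5:**
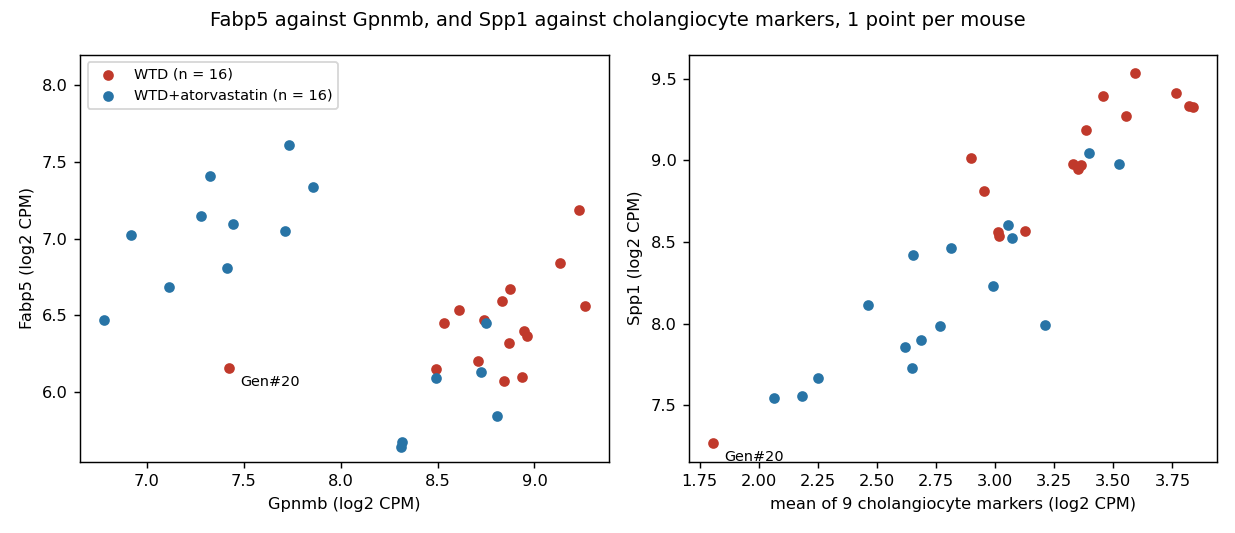
Left, Fabp5 against Gpnmb, and right, Spp1 against the mean of 9 cholangiocyte markers, all in log2 CPM, in WTD-fed (n = 16) and treated mice (n = 16), with 1 point per mouse and mouse Gen#20 named. Treated mice with more Gpnmb had less Fabp5 in the left panel (r = -0.62), while r over the WTD-fed mice was 0.49 and did not pass. Spp1 climbs with the markers in both groups in the right panel (r = 0.93 in WTD).

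Over 13643 other genes with a mean of at least 1 CPM, those most alike to each gene were ranked by r across the 32 WTD-fed mice after removal of the group means, as a description with mouse Gen#20 in it. For Trem2 these were Cd63 (0.90), Svep1 (0.88) and Adamtsl2 (0.87), and for Gpnmb they were Haus8 (0.92), Ctss (0.92) and Lgals3 (0.91). Lgals3 had Gpnmb (0.91), Lcn2 (0.87) and Cd9 (0.85). Tyrobp was most like Lyz2 (0.80), Tmsb4x (0.79) and Myl6 (0.77), and Cd9 like S100a11 (0.89), Timp1 (0.87) and Cd63 (0.87). Spp1 was most like Epcam (0.93), a bile duct marker, then Bicc1 (0.93) and Emp1 (0.91). Fabp5 had lower values, with H1f0 (0.73), Sdc4 (0.73) and Cux2 (0.71), and its r with each of the other 6 genes was below 0 in these pooled mice. Over the WTD-fed mice without treatment alone, each of these was above 0 (0.322 to 0.495), and none passed. For each gene, 95% of all genes had an r below 0.40 to 0.57.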

How the data were processed

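Liver RNA of 42 mice was measured by strand-specific sequencing of polyadenylated RNA. The authors mapped read pairs with STAR to GRCm38 and obtained gene counts from HTSeq 0.6.1p1, and the deposited values are these counts, without normalization. The table of all mice equals the 42 single tables, and no library occurred more than once. Read pairs in no gene (2.28% on average), in more than 1 gene (5.95%) or at more than 1 place (4.68%) were left out. Low counts carry more error, and the totals per mouse are in the results. Symbols and positions came from GENCODE vM21 (54409 of 54446 identifiers matched, versions ignored), and near copies were sought by BLAST of their transcripts.

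Genes were kept by filterByExpr (count of 10, total of 15), scaled by TMM and tested with edgeR 4.0.16 (quasi-likelihood, robust, R 4.3.3) in 1 fit of all mice with 3 groups and no covariate, since the labels name no batch. Benjamini-Hochberg adjustment ran over 15574 genes, with calls under 0.01. The SE of a log2 fold change is its size divided by the root of F, and intervals are 1.96 SE to either side. Relations used two-sided permutation tests (100000 permutations, exact for 6 mice) on log2 CPM with a prior count of 2, called under 0.05. The smallest p they give is 1e-05.

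The 7 genes and all lists were chosen with earlier results of these data known. Named are the 7 genes, up to 4 genes per list with the smallest p in WTD against chow and up to 4 in treatment against WTD, list genes not tested, and the 3 genes most alike to each of the 7. From the genes named by this rule, 1 is left out here. Alternatives were DESeq2 1.42.0, limma 3.58.1 (voom with quality weights), RLE and upper-quartile scaling, other filters, 2-group fits, no robust estimation, other thresholds, leaving out incomplete libraries, library incompleteness as a covariate, a prior count of 0.5, other reference markers, Spearman correlation and leaving out each mouse. Added after seeing the data were the ratios of gene pairs, correlations without Gen#20 or within treated mice of lower or higher Gpnmb, and the principal transcript as length. The tests were run first on simulated data. Separate mice are the replicates.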

Additional observations from a re-analysis of the deposited data

Results flagged for a closer look

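Chow-fed mouse AZ#1 had 62.7 CPM of Cd9, where the nearest of the 9 other chow-fed mice had 35.2. This gap took 55.0% of the range of the group in CPM, above the limit for 10 samples. In log2 CPM the mouse had 5.97, the nearest 5.14 and the lowest 3.68, and the gap was not tested on that scale. Of the 7 genes tested this way in chow-fed mice, Cd9 was the one set apart, and chance sets about 1 in 20 groups apart. The library was not among the incomplete ones.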

How the results depend on the processing

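No paired analysis was possible because each mouse gave 1 library and mouse numbers name different animals. None of the 7 genes changed direction in any fit, and their calls on WTD over chow and of treatment over chow held in all of them. For treatment against WTD 3 genes (Trem2, Tyrobp, Lgals3) were called without the incomplete libraries and 0 with a minimum absolute log2 change of 1, where Trem2 had -0.97, Tyrobp -0.73, Gpnmb -0.86, Spp1 -0.79 and Lgals3 -0.85, and 5 to 6 when any 1 mouse was left out. Without the incomplete libraries Gpnmb had -0.76 and Spp1 -0.70, and with the covariate Gpnmb had -0.80. Cd9 was called with DESeq2 (-0.52), voom (-0.49), RLE (-0.52), upper-quartile scaling (-0.51), at least 10 counts (-0.52), 2 groups (-0.49), no robust estimation (-0.48), the covariate (-0.53) and an adjusted p under 0.05 (-0.48). It was also called without any 1 of AZ#1, AZ#5, AZ#7, Gen#4, Gen#15, Gen#20, Gen#22, Gen#23, Gen#24, Gen#25 and Gen#34 (all 42 fits: -0.53 to -0.45, adjusted p 0.00172 to 0.0196). Relative to Ptprc and to Kupffer cell markers, Cd9 on WTD over chow had 0.274 and 1.77, Fabp5 0.045 and 1.541, and Spp1 0.856 and 2.352. Relative to pan-macrophage markers, Cd9 under treatment had 0.029 without the incomplete libraries, and relative to Ptprc it had -0.207 in all mice. With Spearman rho 5 gene pairs and 2 marker relations passed in WTD, and without Gen#20 4 and 1. In treated mice 2 pairs and 2 marker relations passed among those with lower Gpnmb and 0 and 0 among those with higher, against 17 and 18 in all 16. These subsets were cut on Gpnmb itself after its values were seen, at a gap that took no larger share of its range than the widest gaps of Tyrobp, Spp1 and Lgals3, so their counts say nothing about the relations. Over all genes, voom called 3118 against 1106 for treatment over WTD, 68.2% of the 1106 higher, against 50.9% with DESeq2, 52.8% with 2 groups, 54.9% with RLE, 55.6% with at least 10 counts and 58.3% with voom. The causes were not tested.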
